A study of Mus musculus with 54 samples.

Results

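The chains of the receptors for interleukin-2 (IL-2) and interleukin-7 (IL-7) were followed in the RNA of ILC2s from the small intestine of mice. ILC2s are lymphocytes without antigen receptors that make type 2 cytokines such as IL-5 and IL-13. The 4 genes, Il2ra, Il2rb, Il2rg and Il7r, were taken by name. All 4 were listed among the 10799 genes of the culture experiment and the 10176 genes of the genotype experiment, and all 4 passed the filter on low values in both.

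The 40 libraries, 4 per group, were prepared by Smart-seq2, which sequences whole transcripts from small cell numbers. They came from C57BL/6 mice aged 8 to 12 weeks, labelled as pooled from both sexes. In the culture experiment, WT ILC2s were kept for 4, 48 or 72 h with IL-2, IL-7 and IL-25, a cytokine released by tuft cells of the epithelium that stimulates ILC2s, or with IL-2 and IL-7 alone (written "without IL-25" here). Every culture library was therefore exposed to the ligands of the receptors described. In the genotype experiment, the groups were iILC2 KO, iILC2 CTRL, nILC2 KO and nILC2 CTRL, all from mice treated with IL-25 for 48 h, without culture. By the series text KO stands for Rxrg-/- mice, targeted in the gene of retinoid X receptor gamma, and CTRL for Rxrg+/+ (WT) mice. The name of the deposited genotype data gives cKO instead, and this difference is not explained. The meaning of the prefixes n and i is not given in the labels, which also do not say whether libraries of a group came from separate mice or cultures, so p-values measure the spread between libraries, which may be technical. Values are TPM as deposited by the authors, a level per transcript length scaled to a fixed total per library.

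IL-2 is bound by 3 chains. The alpha chain CD25 (Il2ra) raises the affinity for IL-2 and does not signal itself, while the beta chain CD122 (Il2rb), shared with the IL-15 receptor, and the common gamma chain CD132 (Il2rg) carry the signal. The IL-7 receptor joins CD127 (Il7r) to the same common gamma chain, and CD127 also serves the receptor of TSLP together with the product of Crlf2. The beta chain and CD127 bind the kinase JAK1 and the gamma chain binds JAK3, which activate STAT5. ILC2s need IL-7 for their development and respond to IL-2 with growth and cytokine secretion.

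The promoters of the chains with a matched RefSeq entry are shown for the motifs of factors known to act downstream of cytokine and activation signals. The sequences are RefSeq's for GRCm38.p6, the assembly of mm10, from 250 bases before to 50 bases after the annotated start, 5′ to 3′ on the strand of the gene, and entries were matched for 3 of the 4 chains. Capitals mark matches to 6 motifs searched on both strands. NF-kB was searched as 3 bases G, 5 of any kind and 2 bases C, and STAT5 as TTCNNNGAA. The motif taken for FOXO factors was GTAAACA and the motif taken for RUNX factors was TGTGGT. For the family of Gata3 the letters were AGATAA, and for ETS factors the letters were CGGAAG. Il2ra lies at chr2:11642792-11693194 on the plus strand and its window at chr2:11642542-11642841. Il7r lies at chr15:9506159-9529941 on the minus strand and its window at chr15:9529827-9530126. This window was drawn around a start inside the gene as given, not at its outer end. Distances for Il7r refer to that start. Il2rg lies at chrX:101264385-101268255 on the minus strand and its window at chrX:101268206-101268505. Il2rb lies at chr15:78479256-78511621.
Il2ra: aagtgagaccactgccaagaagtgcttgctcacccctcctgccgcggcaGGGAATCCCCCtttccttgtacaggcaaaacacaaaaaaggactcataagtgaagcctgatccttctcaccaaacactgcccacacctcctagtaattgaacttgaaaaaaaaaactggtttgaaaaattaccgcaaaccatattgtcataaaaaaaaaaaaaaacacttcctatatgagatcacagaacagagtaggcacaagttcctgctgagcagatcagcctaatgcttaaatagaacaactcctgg
Il7r: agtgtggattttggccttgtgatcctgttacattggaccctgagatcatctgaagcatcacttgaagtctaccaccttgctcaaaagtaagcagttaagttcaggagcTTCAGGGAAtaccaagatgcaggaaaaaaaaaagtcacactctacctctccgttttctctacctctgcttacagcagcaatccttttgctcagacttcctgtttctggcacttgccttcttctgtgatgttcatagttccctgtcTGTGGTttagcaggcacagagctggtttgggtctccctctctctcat
Il2rg: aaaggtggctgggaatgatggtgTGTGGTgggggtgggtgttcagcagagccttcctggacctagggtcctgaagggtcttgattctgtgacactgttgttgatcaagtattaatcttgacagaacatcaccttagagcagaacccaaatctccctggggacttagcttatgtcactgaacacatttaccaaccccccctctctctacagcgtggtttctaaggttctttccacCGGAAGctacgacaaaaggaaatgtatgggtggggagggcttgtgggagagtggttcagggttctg

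In the Il2ra window, the capitals mark 2 overlapping NF-kB matches that begin 201 and 200 bases before the start. This motif is loose, since 50.8% of the 32851 promoter windows of the same length hold it. The Il7r window holds 1 STAT5 match, 142 bases before the start, found in 8.3% of all windows, and 1 RUNX match that begins 4 bases past the start. In the Il2rg window, 1 RUNX match begins 227 bases and 1 ETS match 16 bases before the start, and 16.8% and 16.9% of windows hold these motifs. No FOXO or Gata3-family match lay in the 3 windows, where 3.65% and 11.2% of all windows hold one. These matches describe letters only, and binding was not measured here.

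The listed genes summed to 873200 to 898025 TPM in the culture libraries and 849733 to 886670 TPM in the genotype libraries, and sequencing depth is unknown. Rxrg, the targeted gene, was at 1.27 to 3.12 TPM in nILC2 KO libraries, against 12.2 to 18.4 TPM in nILC2 CTRL libraries, and at 0 to 0.48 TPM in iILC2 KO libraries, against 1.26 to 1.83 TPM in iILC2 CTRL libraries. The fall in nILC2 KO was called (log2 fold change -2.35, limma adjusted p = 1.2e-05) and the difference in iILC2 was not (adjusted p = 0.44). Of 12 ILC2 marker genes, all averaged at least 1 TPM in the culture and nILC2 groups and 11 did in the iILC2 groups. No mast cell or basophil marker of 4 was listed, and of 7 T cell markers 2 were listed, Cd3e and Cd3g in the culture and Cd3g and Cd5 in the genotype experiment, without Cd4 and Cd8a. Y-linked genes together reached 5 TPM in 2 of 4 iILC2 KO, 3 of 4 iILC2 CTRL, 2 of 4 nILC2 KO and 3 of 4 nILC2 CTRL libraries, although all are labelled as pooled from both sexes. A term for this split changed the call of no chain. In bulk RNA, fewer cells of a type and less RNA per cell cannot be told apart.

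**Figure D1:**
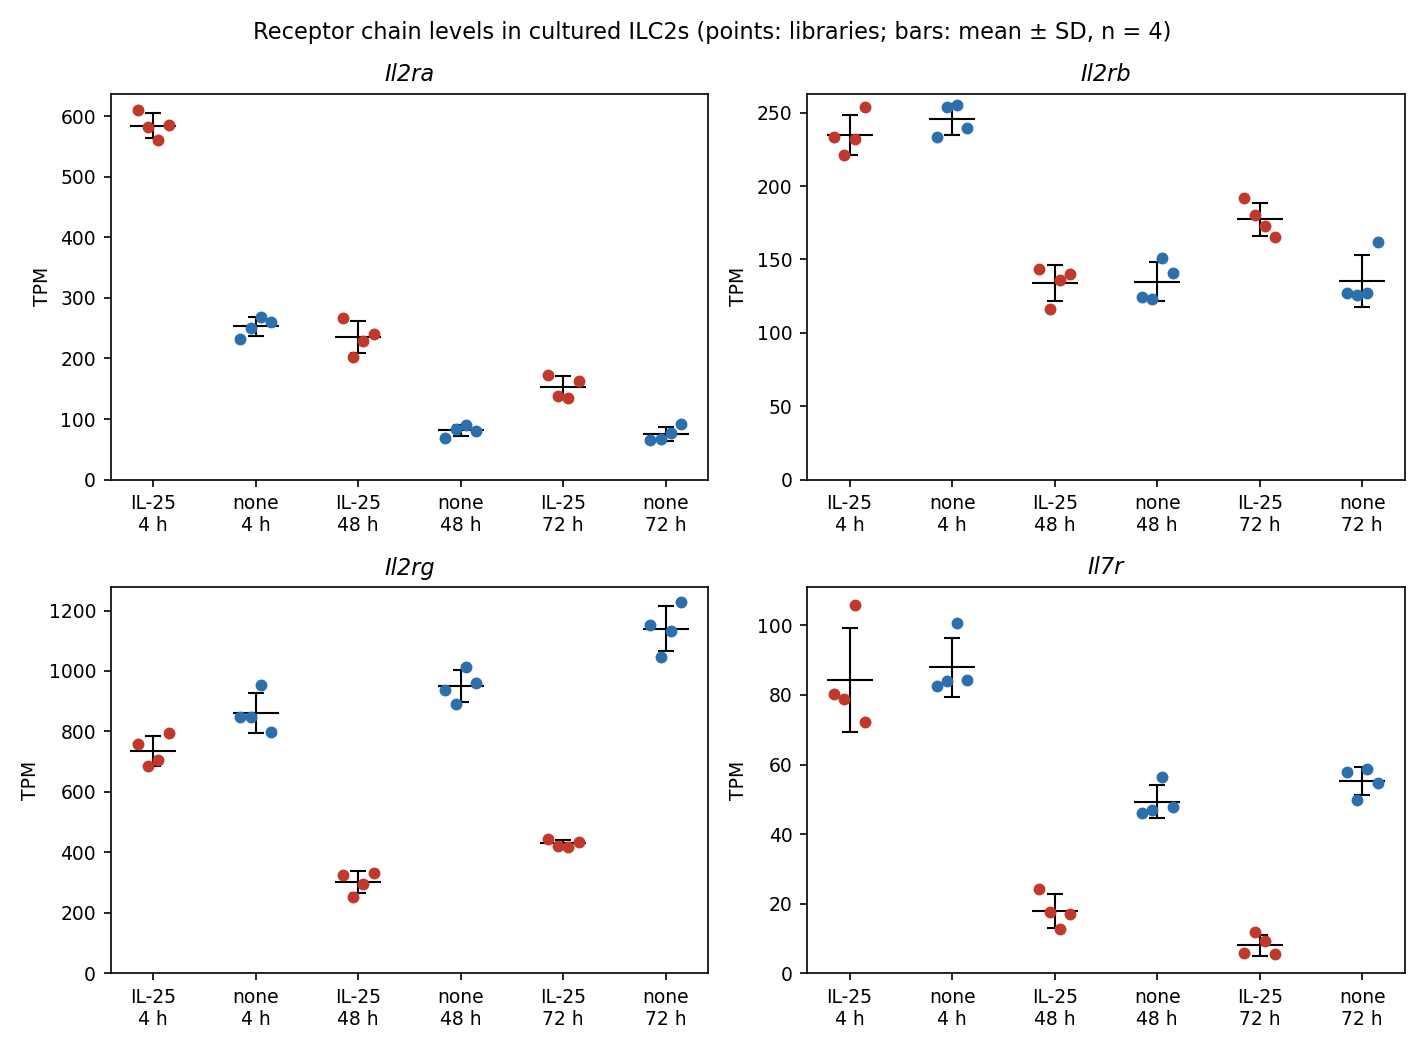
Levels of the 4 chains in TPM (y axis, linear from 0) in the 6 culture groups, with IL-25 in red left of none, meaning without IL-25, in blue at 4, 48 and 72 h. Points are libraries and bars the mean ± SD of 4 libraries. Il2ra was higher with IL-25 at every time, Il2rg and Il7r were far lower with IL-25 at 48 and 72 h, and the Il2rb libraries of both groups overlapped at 4 and 48 h.

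IL-25 moved the chains in different directions. Il2ra, the alpha chain that raises affinity for IL-2, rose 2.31-fold at 4 h, 2.88-fold at 48 h and 2.03-fold at 72 h. Il2rg, the gamma chain shared by the whole receptor family, was lower with IL-25 by 3.15-fold at 48 h and 2.66-fold at 72 h. Il7r was 2.76-fold lower at 48 h and 6.86-fold lower at 72 h. Il2rb passed the test at 72 h alone, where it was 1.31-fold higher.

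Il2ra was at 609.9, 582, 561 and 584 TPM with IL-25 at 4 h, against 232, 249.6, 269 and 261 TPM without it. At 48 h the libraries held 267, 203, 229 and 241 TPM with IL-25, against 69.4, 84.4, 91.0 and 81.0 TPM without. At 72 h they held 173, 137, 135 and 163 TPM with IL-25, against 65.6, 66.9, 76.9 and 91.1 TPM without. At each time, every library with IL-25 lay above every library without it. On the log2(TPM + 1) scale Il2ra rose by 1.21 ± 0.10 (SE) at 4 h (limma, adjusted p = 9.2e-10), by 1.52 ± 0.10 at 48 h (adjusted p = 4.7e-12) and by 1.01 ± 0.10 at 72 h (adjusted p = 1e-08), with n = 4 libraries per group here and in all later comparisons. Foxp3, which encodes a transcription factor of regulatory T cells, moved with Il2ra at 4 h, at 48.3 to 72.2 TPM with IL-25 against 12.3 to 18.7 TPM without. The 3 regulatory T cell markers, all listed, summed to 64.3 to 97.1 TPM with IL-25 and 36.9 to 43.3 TPM without at that time. Foxp3 alone of these was higher beyond overlap at 4 h. Ikzf2 averaged 19.9 TPM with IL-25 and 24.2 TPM without, with overlap. Ctla4, an inhibitory receptor gene, was at most 0.67 TPM with IL-25 and 0.22 TPM without. The 2 listed T cell markers went the other way at 4 h, at 15.9 to 25.5 TPM with IL-25 and 28.9 to 35.3 TPM without. The sum of the regulatory T cell markers moved with Il2ra at the later times too, at 89.7 to 114.5 TPM with IL-25 and 21.5 to 30.5 TPM without at 48 h, and at 128.0 to 152.8 TPM with IL-25 and 23.8 to 31.1 TPM without at 72 h. Among its members, Ctla4 was at 68.1 to 87.7 TPM with IL-25 and at most 0.52 TPM without at 48 h. Foxp3 was at 1.20 to 2.01 TPM with IL-25 and 0.69 to 3.35 TPM without at that time. At 72 h Ctla4 was at 107.8 to 128.0 TPM with IL-25 and at most 1.08 TPM without. Foxp3 went the other way at 72 h, at 0.24 to 1.65 TPM with IL-25 and 2.87 to 3.87 TPM without. Ikzf2, the third member, averaged 20.9 TPM with IL-25 and 23.6 TPM without at 48 h, and 21.0 and 22.2 TPM at 72 h. Cd79b, the 1 B cell marker listed of 4, was at 71.3 to 91.5 TPM with IL-25 and 43.5 to 49.8 TPM without at 48 h, and at 131.7 to 156.9 TPM with IL-25 and 37.6 to 47.1 TPM without at 72 h. At 4 h Cd79b went the other way, at 12.3 to 19.5 TPM with IL-25 and 25.2 to 30.1 TPM without. The part of these markers in the rises of Il2ra was not tested.

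Il2rb, the signalling chain shared with the IL-15 receptor, was at 233, 221, 232 and 254 TPM with IL-25 at 4 h, against 234, 254, 255 and 239 TPM without it, and the groups overlapped. Its log2 fold change was -0.063, with a 95% interval from -0.24 to 0.11 (adjusted p = 0.59). At 48 h the levels were 144, 117, 136 and 140.1 TPM with IL-25 and 125, 123, 151 and 141 TPM without, a log2 fold change of -0.0085 with an interval from -0.18 to 0.17 (adjusted p = 0.95). At 72 h Il2rb held 192, 180.1, 172 and 166 TPM with IL-25, against 127, 125, 127 and 162 TPM without, and the highest library without IL-25 still lay under the lowest with it. Here Il2rb rose by 0.39 ± 0.084 (adjusted p = 0.00044).

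Il2rg was the most abundant of the 4 chains in each of the 10 groups. At 4 h it held 758, 685, 706 and 794 TPM with IL-25, against 847, 848, 953 and 798 TPM without it. The groups did not overlap, by a narrow gap, and the log2 fold change of -0.23 ± 0.073 (adjusted p = 0.015) was the smallest of the called IL-25 effects on the chains. It passed the threshold neither after rescaling by the median of ratios (-0.076, adjusted p = 0.43), nor without replicate 2 with IL-25 (adjusted p = 0.059) or replicate 3 without it (adjusted p = 0.07), and its adjusted p ranged from 0.00012 to 0.43 over the alternatives. At 48 h Il2rg held 324, 252, 296 and 333 TPM with IL-25, against 936, 889, 1014 and 962 TPM without. At 72 h it held 444, 422, 417 and 433 TPM with IL-25, against 1151, 1048, 1132 and 1229 TPM without. At both times every library with IL-25 lay far under the lowest without it. Il2rg fell by 1.66 ± 0.073 at 48 h (adjusted p = 1.2e-15) and by 1.41 ± 0.073 at 72 h (adjusted p = 2.9e-14).

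Il7r, the chain that binds IL-7, was the least abundant of the 4 in all culture groups. At 4 h it held 80.2, 78.7, 106 and 72.25 TPM with IL-25 and 82.7, 83.9, 100.7 and 84.4 TPM without it, and these groups overlapped (log2 fold change -0.071, 95% interval -0.44 to 0.30, adjusted p = 0.79). At 48 h the levels were 24.2, 17.6, 12.6 and 17.1 TPM with IL-25, against 46.1, 47.0, 56.3 and 47.85 TPM without. At 72 h they were 5.79, 11.7, 9.37 and 5.39 TPM with IL-25, against 57.8, 49.9, 58.9 and 54.8 TPM without. No library with IL-25 came near the range of those without it at either time. Il7r fell by 1.45 ± 0.18 at 48 h (adjusted p = 2.6e-07) and by 2.69 ± 0.18 at 72 h (adjusted p = 4.2e-12), where it ranked 140 by size of change among the 10548 genes tested. The 2 listed T cell markers moved with it, at 23.95 to 29.0 TPM with IL-25 and 82.4 to 129 TPM without at 48 h, and at 30.8 to 42.2 TPM with IL-25 and 96.0 to 114 TPM without at 72 h, nearly all of it Cd3g, with Cd3e at most 1.76 TPM with and 3.29 TPM without IL-25. Of 4 red blood cell markers, the alpha globin genes Hba-a1 and Hba-a2 were listed and the beta globin genes Hbb-bs and Hbb-bt were not. The 2 alpha globin genes summed to 8.71 to 20.9 TPM with IL-25 at 48 and 72 h and 479 to 798 TPM without. They were lower with IL-25 also at 4 h, where Il7r was not called, at 5.60 to 9.37 TPM against 60.46 to 82.48 TPM. The epithelial markers, 2 of 4 listed, summed to 35.1 to 40.5 TPM with IL-25 and 95.9 to 112.8 TPM without at 48 h, and to 51.5 to 61.5 TPM with IL-25 and 68.0 to 88.1 TPM without at 72 h. Of these, Epcam averaged 31.4 TPM with IL-25 and 104.4 TPM without at 48 h, and Krt18 went the other way, at 7.53 TPM with IL-25 and 0.25 TPM without. At 4 h Epcam averaged 92.1 TPM with IL-25 and 176.1 TPM without, and Krt18 was at most 0.87 TPM. ILC2 markers went both ways at 48 h. With and without IL-25, mean TPM were 36.5 and 179.3 for Rora, 18.0 and 124.0 for Il17rb, and 363.8 and 872.2 for Id2. Gata3 (294.9 and 722.7), Arg1 (97.3 and 338.8) and Thy1 (8.45 and 34.8) were lower too. Klrg1 (815 and 454), Il5 (2101 and 187), Il13 (199.8 and 23.9) and Areg (146.5 and 30.2) were higher, and Il1rl1 and Ptprc overlapped. At 72 h Id2 overlapped, while Il1rl1 and Ptprc no longer did and were higher with IL-25. Il1rl1 was then at 161.71 to 187.05 TPM with IL-25 and 80.56 to 115.57 TPM without. Ptprc was at 108.84 to 127.54 TPM with IL-25 and 86.85 to 107.61 TPM without. The other ILC2 markers kept their 48 h directions at 72 h. The part of all these markers in the falls of Il7r and Il2rg was not tested.

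In all, 2 of the 4 chains were called at 4 h, 3 at 48 h and 4 at 72 h. IL-25 moved much of the measured transcriptome in the same libraries, since 40.3% of all genes tested were called at 4 h, 50.1% at 48 h and 48.5% at 72 h. A smaller share, 8.29%, 13.1% and 12.1%, was called and at least 2-fold changed at those times. The median log2 fold change of all genes was -0.12 at 4 h, -0.093 at 48 h and -0.20 at 72 h. Relative to it, the 4 h values were 1.33 for Il2ra, 0.056 for Il2rb, -0.11 for Il2rg and 0.048 for Il7r. The 72 h values relative to it were 1.21 for Il2ra, 0.59 for Il2rb, -1.21 for Il2rg and -2.50 for Il7r.

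The next comparison asked whether the effect of IL-25 itself differed between times. Between 4 and 48 h it changed for Il2rg by -1.43 ± 0.10 (adjusted p = 6.7e-11) and for Il7r by -1.38 ± 0.25 (adjusted p = 0.00017), so that 2 of 4 chains were called, with 27.9% of all genes. For Il2ra the change was 0.31, with a 95% interval from 0.011 to 0.61 (adjusted p = 0.12), and for Il2rb 0.055, with an interval from -0.19 to 0.30 (adjusted p = 0.78). Between 48 and 72 h, 3 of 4 chains were called, with 14.7% of all genes. The effect on Il7r grew by a further -1.25 ± 0.25 (adjusted p = 0.0012). The rise of Il2ra became smaller, by -0.50 ± 0.14 (adjusted p = 0.019), and that of Il2rb larger, by 0.40 ± 0.12 (adjusted p = 0.023), while the change for Il2rg was 0.25, with an interval from 0.041 to 0.47 (adjusted p = 0.11). These last 3 depended on single settings. The change for Il2ra lost its call under the median of ratios (-0.37, adjusted p = 0.057), under quantile normalization (-0.34, adjusted p = 0.089) and without replicate 1 with IL-25 at 48 h (-0.44, adjusted p = 0.05). For Il2rb the call was lost without replicate 3 of the 48 h libraries without IL-25 (0.35, adjusted p = 0.052), without replicate 2 with IL-25 at 48 h (0.34, adjusted p = 0.058) and without replicate 1 with IL-25 at 72 h (0.36, adjusted p = 0.055). For Il2rg a call appeared under the median of ratios (0.39, adjusted p = 0.012) and quantile normalization (0.31, adjusted p = 0.029).

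**Figure D2:**
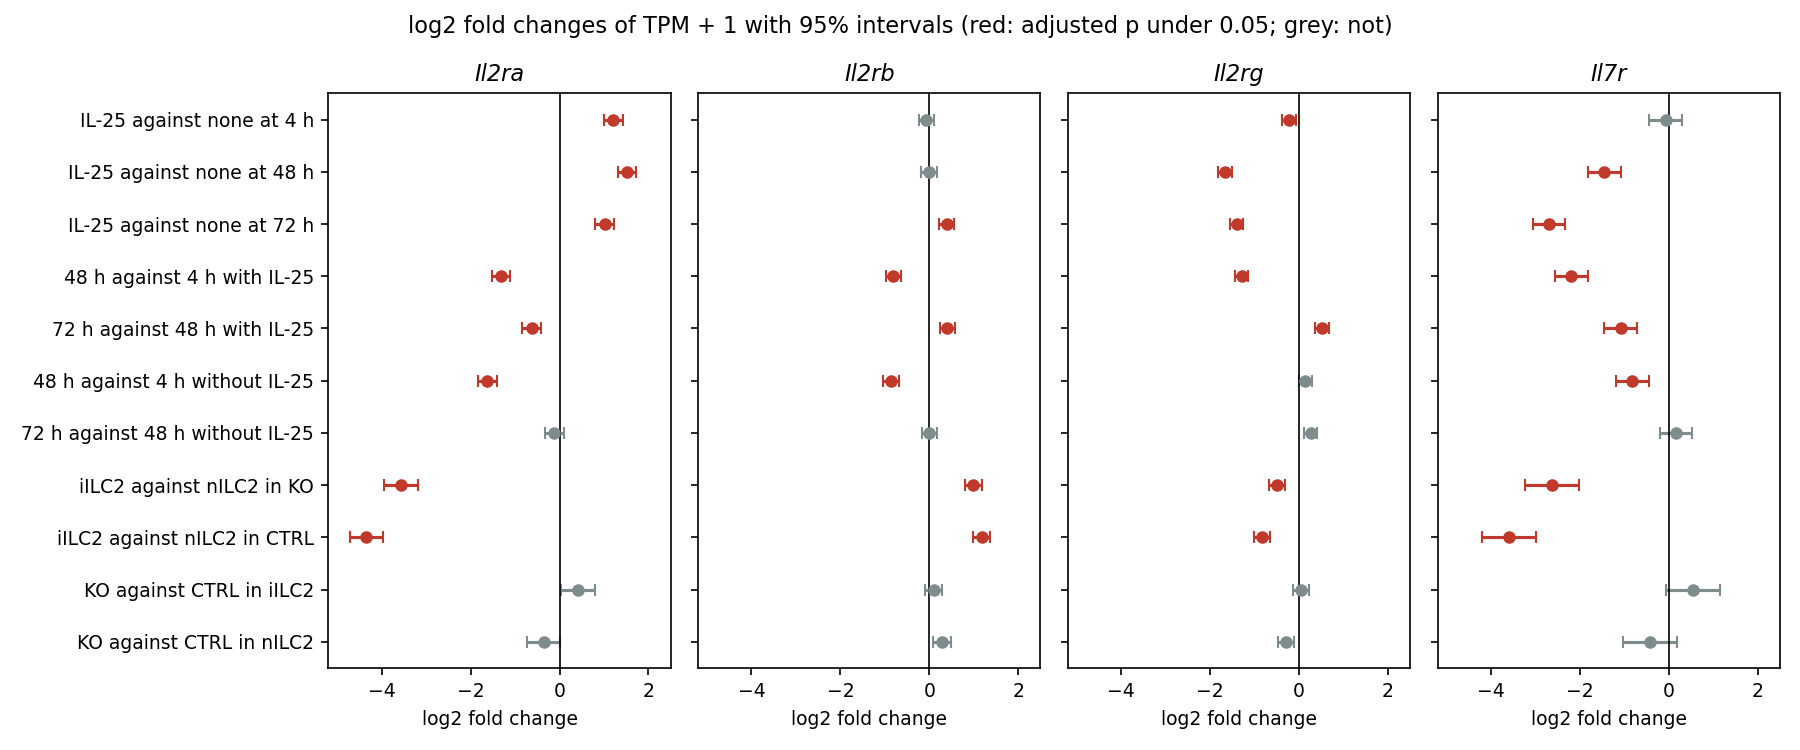
Fitted log2 fold changes of TPM + 1 for each chain (x axis) in 11 comparisons (y axis), with 95% intervals from limma over 4 libraries per group. Red marks an adjusted p under 0.05 and grey one at or above it. Il7r reached -2.69 with IL-25 at 72 h, and Il2ra -4.35 in iILC2 against nILC2 of CTRL mice.

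With IL-25 all 4 chains were lower at 48 h than at 4 h, in a comparison that called 72.2% of all genes. Il7r fell by 2.20 ± 0.18 (adjusted p = 6.5e-11), Il2ra by 1.32 ± 0.10 (adjusted p = 2.6e-11), Il2rg by 1.29 ± 0.073 (adjusted p = 5.7e-14) and Il2rb by 0.81 ± 0.084 (adjusted p = 5.6e-09). The levels then parted. At 72 h against 48 h, Il7r fell by 1.08 ± 0.18 (adjusted p = 4e-05) and Il2ra by 0.63 ± 0.10 (adjusted p = 3.4e-05), while Il2rg rose by 0.52 ± 0.073 (adjusted p = 5e-06) and Il2rb by 0.41 ± 0.084 (adjusted p = 0.00054). In that step 31.2% of all genes were called.

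Time in culture moved the chains also without IL-25, in the same IL-2 and IL-7. Over 4, 48 and 72 h without IL-25, Il2ra averaged 253 ± 15.8, 81.5 ± 9.03 and 75.1 ± 11.8 TPM (SD), and Il2rb 245 ± 10.7, 135 ± 13.5 and 136 ± 17.6 TPM. Il7r averaged 88.0 ± 8.52, 49.3 ± 4.70 and 55.3 ± 4.03 TPM at those times. Il2rg averaged 861 ± 65.3, 950.1 ± 51.9 and 1140.0 ± 74.4 TPM, with no call between neighbouring times. Between 48 and 4 h without IL-25, Il2ra fell by 1.63 ± 0.10 (adjusted p = 8.1e-13), Il2rb by 0.86 ± 0.084 (adjusted p = 2.7e-09) and Il7r by 0.82 ± 0.18 (adjusted p = 0.00032). Thus 3 of 4 chains were called, beside 64.4% of all genes. For Il2rg the log2 change of 0.14 (95% interval -0.0084 to 0.29, adjusted p = 0.092) passed the threshold under the median of ratios (0.47, adjusted p = 4.3e-06) and without replicate 3 at 4 h (0.19, adjusted p = 0.033), and was -0.048 under quantile normalization. Between 72 and 48 h without IL-25 no chain was called, and 0.379% of all genes were. The 95% intervals there were -0.33 to 0.090 for Il2ra, -0.17 to 0.18 for Il2rb, 0.11 to 0.41 for Il2rg (adjusted p = 0.13) and -0.21 to 0.54 for Il7r. The median log2 change of all genes between 48 and 4 h was -0.24 with and -0.28 without IL-25. Relative to these, Il2ra stood at -1.07 with and -1.35 without IL-25, Il2rb at -0.57 and -0.59, Il2rg at -1.05 and 0.42, and Il7r at -1.95 and -0.55. The time and IL-25 comparisons share libraries, so their values are set side by side only.

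In the genotype experiment iILC2 and nILC2 differed in all 4 chains, in CTRL and in KO mice. Il2ra was 31.4-fold lower in iILC2 CTRL than in nILC2 CTRL and Il7r was 12.1-fold lower, while Il2rb was 2.28-fold higher. Il2rg was 1.785-fold lower.

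Il2ra was listed at 2.22, 1.56, 1.90 and 1.16 TPM in iILC2 CTRL libraries, against 54.75, 48.7, 55.4 and 55.8 TPM in nILC2 CTRL libraries. In KO mice it was at 2.59, 3.08, 2.54 and 2.19 TPM in iILC2 and at 56.6, 45.8, 28.8 and 40.1 TPM in nILC2. The highest iILC2 library held 3.08 TPM and the lowest nILC2 library 28.8 TPM, so that the groups lay far apart in both genotypes. The log2 fold change was -4.35 ± 0.18 in CTRL (adjusted p = 4.4e-12), rank 19 by size of 10069 genes, and -3.57 ± 0.18 in KO (adjusted p = 1.4e-10), rank 15.

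Il7r held 38.55, 20.5, 23.8 and 20.6 TPM in iILC2 CTRL, against 279, 311, 307 and 354 TPM in nILC2 CTRL. In KO mice it held 65.9, 47.2, 27.5 and 21.4 TPM in iILC2, against 379, 233, 168 and 194 TPM in nILC2. All iILC2 libraries lay under all nILC2 libraries, with the widest spread among nILC2 KO libraries (CV 38.7%) and iILC2 KO libraries (CV 49.9%). Il7r fell by 3.59 ± 0.29 in CTRL (adjusted p = 1.6e-08) and by 2.62 ± 0.29 in KO (adjusted p = 1.7e-06).

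Il2rb held 142, 139, 128 and 121 TPM in iILC2 CTRL, against 60.4, 66.0, 56.7 and 49.5 TPM in nILC2 CTRL. In KO mice it held 139, 149, 128 and 153 TPM in iILC2, against 65.6, 70.2, 76.1 and 71.4 TPM in nILC2. It was thus the chain that was higher in iILC2, by 1.18 ± 0.092 in CTRL (adjusted p = 1.1e-08) and 0.99 ± 0.092 in KO (adjusted p = 2e-07), without overlap. Il2rg held 411, 382, 406 and 389.7 TPM in iILC2 CTRL, against 676, 665, 772 and 723 TPM in nILC2 CTRL. In KO mice Il2rg held 407, 369, 441 and 431 TPM in iILC2, against 701, 544, 513 and 566 TPM in nILC2. It fell by 0.83 ± 0.084 in CTRL (adjusted p = 2.7e-07) and by 0.49 ± 0.084 in KO (adjusted p = 0.00022).

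These 4 calls per genotype stood beside 45.5% of all genes called in CTRL and 31.4% in KO. The share of all genes called and at least 2-fold changed was 12.3% in CTRL and 7.08% in KO. Il1rl1, the receptor gene for IL-33 and an ILC2 marker, moved with Il2ra and Il7r, at 1.87 to 6.51 TPM in iILC2 CTRL, 2.22 to 4.97 TPM in iILC2 KO, 23.4 to 60.8 TPM in nILC2 KO and 59.9 to 82.7 TPM in nILC2 CTRL. The 12 ILC2 markers together summed to 1220 to 1297 TPM in iILC2 CTRL and 2550 to 2795 TPM in nILC2 CTRL, and to 1272 to 1343 TPM in iILC2 KO and 1840 to 2574 TPM in nILC2 KO. In iILC2 CTRL the means were 101.0 TPM for Id2, 19.8 TPM for Arg1, 119.4 TPM for Il17rb and 167.1 TPM for Gata3, against 754.7, 241.0, 285.6 and 282.2 TPM for these genes in nILC2 CTRL. The type 2 cytokine gene Il5 averaged 2.73 TPM in iILC2 CTRL and 32.3 TPM in nILC2 CTRL, and the growth factor gene Areg 0.61 TPM in iILC2 CTRL and 7.03 TPM in nILC2 CTRL. Klrg1 differed less, at 552 to 626 TPM in iILC2 CTRL and 623 to 771 TPM in nILC2 CTRL, as did Rora and Ptprc. Thy1 went the other way, at 19.6 to 38.1 TPM in iILC2 CTRL and 10.3 to 19.4 TPM in nILC2 CTRL, and Il13 overlapped, at 1.85 to 7.19 TPM in iILC2 CTRL and 2.90 to 3.32 TPM in nILC2 CTRL. The 3 regulatory T cell markers summed to 105 to 155 TPM in iILC2 CTRL and 48.1 to 60.9 TPM in nILC2 CTRL, and to 110 to 151 TPM in iILC2 KO and 55.2 to 64.4 TPM in nILC2 KO. Foxp3 among them was at most 0.94 TPM in iILC2 and 2.62 TPM in nILC2. Ctla4 averaged 85.5 TPM in iILC2 CTRL and 11.7 TPM in nILC2 CTRL, and 83.0 TPM in iILC2 KO and 22.7 TPM in nILC2 KO. Ikzf2 differed less, averaging 46.7 TPM in iILC2 CTRL and 41.0 TPM in nILC2 CTRL, and 46.6 TPM in iILC2 KO and 33.9 TPM in nILC2 KO. The 2 listed T cell markers summed to 6.97 to 25.2 TPM in iILC2 CTRL and 50.5 to 83.2 TPM in nILC2 CTRL, and to 11.1 to 30.2 TPM in iILC2 KO and 26.8 to 91.5 TPM in nILC2 KO. Cd79b was at 238 to 282 TPM in iILC2 CTRL and 117 to 154 TPM in nILC2 CTRL, and at 232 to 254 TPM in iILC2 KO and 125 to 134 TPM in nILC2 KO. The myeloid markers, 2 of 6 listed, summed to 8.34 to 13.7 TPM in iILC2 CTRL and 0.79 to 4.00 TPM in nILC2 CTRL, and to 12.5 to 14.8 TPM in iILC2 KO and 1.90 to 4.59 TPM in nILC2 KO. Of these, Itgam averaged 3.60 TPM in iILC2 CTRL and 0.075 TPM in nILC2 CTRL. The part of these markers in the result was not tested.

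**Figure D3:**
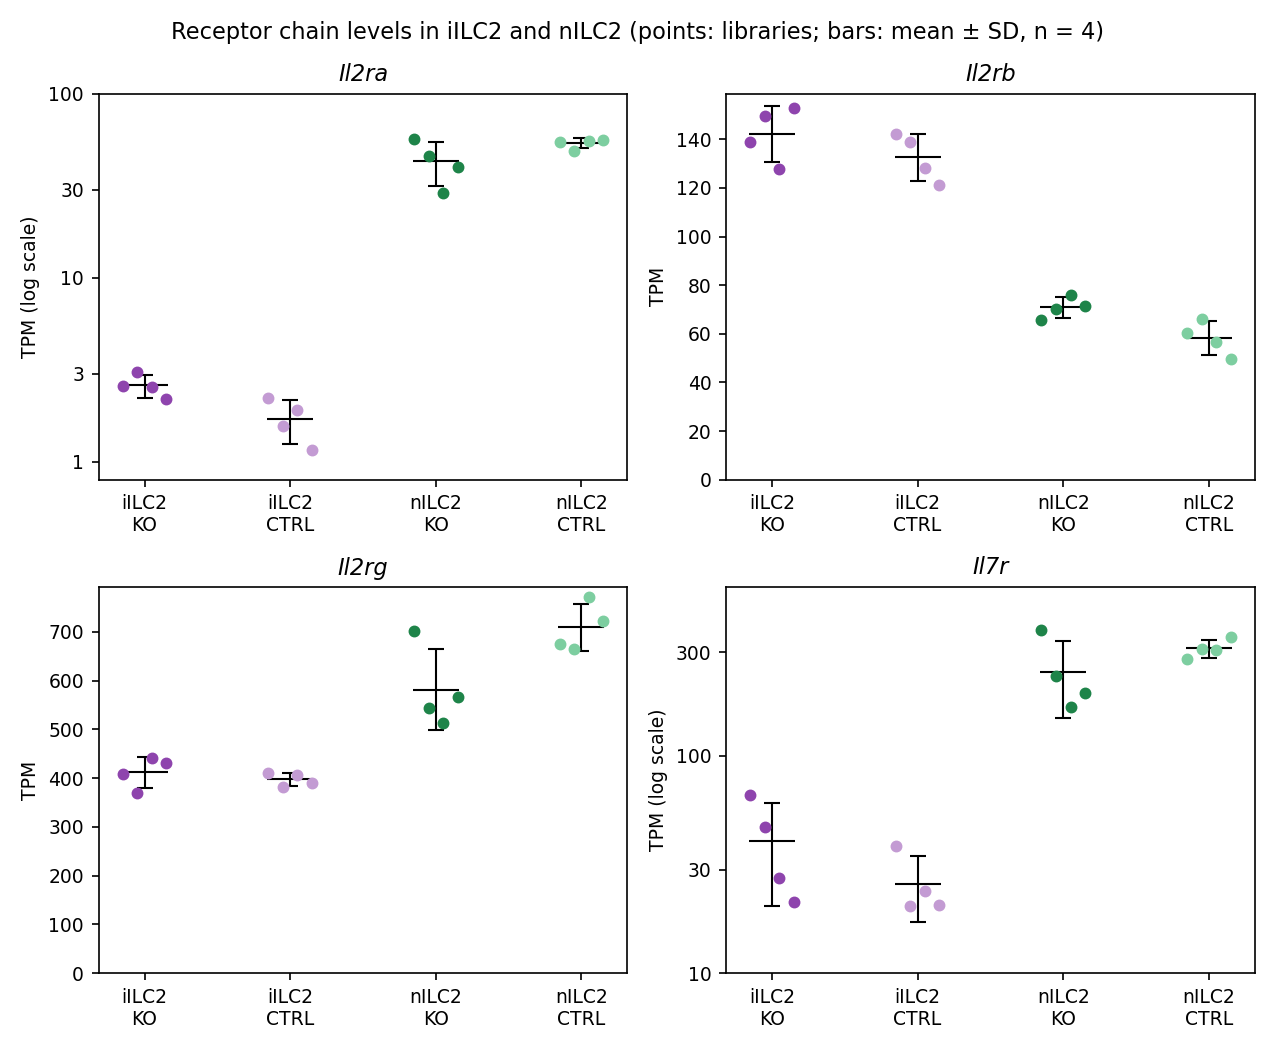
Levels of the 4 chains in TPM in iILC2 and nILC2 of KO and CTRL mice, on a log axis for Il2ra and Il7r and a linear axis from 0 for Il2rb and Il2rg. Points are libraries and bars the mean ± SD of 4 libraries. Il2ra stood at 1.16 to 3.08 TPM in the iILC2 libraries and 28.8 to 56.6 TPM in the nILC2 libraries, and KO and CTRL libraries of each cell group lay close together or overlapped.

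Loss of Rxrg was not followed by a called change in any chain. In nILC2, KO against CTRL, the log2 fold changes were -0.36 for Il2ra (95% interval -0.73 to 0.019, adjusted p = 0.29), 0.29 for Il2rb (0.093 to 0.48, adjusted p = 0.1), -0.29 for Il2rg (-0.47 to -0.12, adjusted p = 0.075) and -0.43 for Il7r (-1.03 to 0.18, adjusted p = 0.44). KO and CTRL libraries overlapped for each chain, and 1.54% of all genes were called. Replicate 1 of nILC2 KO was the highest KO library for Il2ra, Il2rg and Il7r and the lowest for Il2rb. Without it, Il2rg (-0.39, adjusted p = 0.0037) and Il2rb (0.32, adjusted p = 0.044) passed the threshold, and Il2rb also did without replicate 2 of nILC2 CTRL (0.35, adjusted p = 0.045). With array weights Il2rg passed too (-0.34, adjusted p = 0.034). The count of called genes, 155 with all libraries, was 1006 without replicate 1 of nILC2 KO and 411 without replicate 2 of nILC2 CTRL. In iILC2 the log2 fold changes of KO against CTRL were 0.42 for Il2ra (0.044 to 0.80), 0.099 for Il2rb (-0.094 to 0.29), 0.049 for Il2rg (-0.13 to 0.23) and 0.54 for Il7r (-0.062 to 1.15), each with an adjusted p of 1. There limma called 0 of the 10069 genes, a share of 0%, and 328 had an unadjusted p under 0.05. The KO effect was not shown to differ between iILC2 and nILC2 for any chain (adjusted p 0.33 for Il2ra, 0.62 for Il2rb, 0.34 for Il2rg and 0.42 for Il7r), in a comparison with 0 genes called and 1059 at an unadjusted p under 0.05. Without replicate 1 of nILC2 KO, that difference for Il2rg was 0.44 (adjusted p = 0.035).

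TPM are scaled for transcript length, so the chains can also be set against each other within a library. Over the 3 times, Il2ra over Il7r had medians of 7.50, 12.8 and 22.15 with IL-25, against 2.89, 1.655 and 1.32 without it. In the genotype experiment the median ratio was 0.0788 in iILC2 KO and 0.0669 in iILC2 CTRL, against 0.184 in nILC2 KO and 0.169 in nILC2 CTRL. Each culture library thus held more Il2ra than Il7r, and each genotype library held less. The 2 tables were normalized separately, so levels across them are side by side only. Il2ra over Il2rb stood at a median of 0.0193 in iILC2 KO and 0.0130 in iILC2 CTRL, against 0.607 in nILC2 KO and 0.942 in nILC2 CTRL, and at 2.51, 1.73 and 0.842 over time with IL-25, against 1.02, 0.589 and 0.548 without. Il2rg over Il2rb, the common chain over its partner, was at 3.115, 2.22 and 2.38 at 4, 48 and 72 h with IL-25, against 3.48, 7.03 and 8.62 without it. These ratios are descriptions, with no test.

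**Figure D4:**
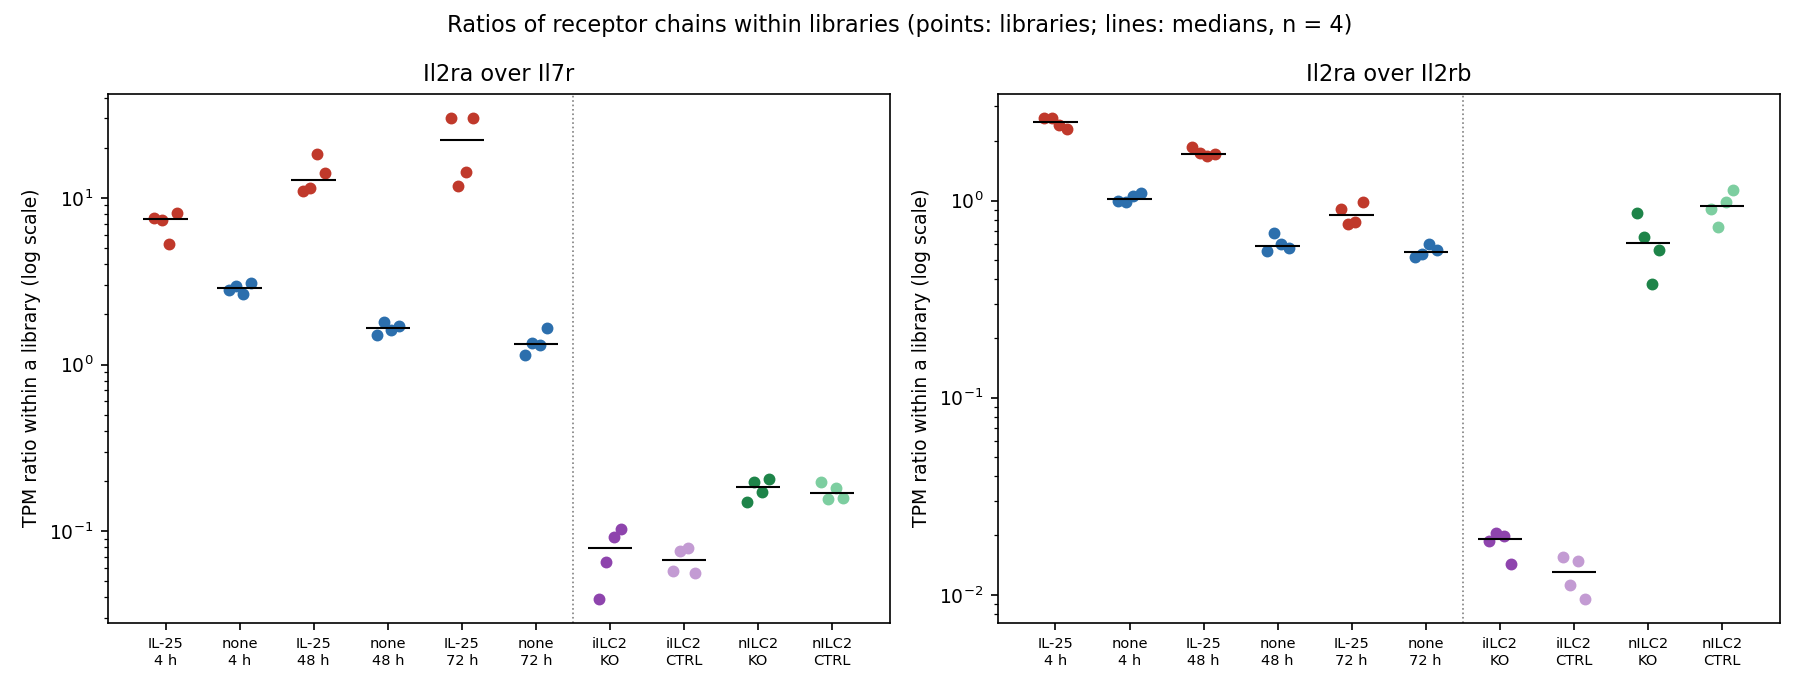
Ratio of Il2ra to Il7r (left) and of Il2ra to Il2rb (right) within each library (y axis, log scale) over the 6 culture groups and, right of the dotted line, the 4 genotype groups. Points are libraries and lines the medians of 4. Il2ra over Il7r lay between 1.13 and 30.3 in the culture libraries and between 0.0393 and 0.207 in the genotype libraries.

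The order of the chains changed with these shifts. With IL-25 the levels ran Il2rg, Il2ra, Il2rb and Il7r at 4 and 48 h, with the ranges of Il2rg and Il2ra overlapping at 48 h, and at 72 h Il2rb passed Il2ra, with overlapping ranges. Without IL-25 they ran Il2rg, Il2ra, Il2rb and Il7r at 4 h, with the libraries of Il2ra and Il2rb overlapping, and Il2rg, Il2rb, Il2ra and Il7r at 48 and 72 h without overlap. In iILC2 of both genotypes the order was Il2rg, Il2rb, Il7r and Il2ra without overlap. In nILC2 of both it was Il2rg, Il7r, Il2rb and Il2ra, where Il2rb and Il2ra overlapped in CTRL.

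Around the chains, other genes of the pathway were followed by list. Of the JAK and STAT genes, which carry the signal of these receptors, all 11 were tested. At 4 h with IL-25, 4 rose and 5 fell (median log2 fold change 0.039, against -0.12 over all genes), or 5 rose and 4 fell under the median of ratios, beside 40.3% of all genes called. Stat5a, which encodes a STAT that these receptors activate, rose by 1.31 ± 0.16 (adjusted p = 2.3e-07) to 172.5 ± 13.5 TPM, against 68.8 ± 4.51 TPM without IL-25. At 48 h, 7 of the 11 fell and 0 rose (median -0.62, against -0.093 over all genes), beside 50.1% of all genes called, with Stat4, a STAT of interleukin-12 signals, at -2.08. Under both rescalings 1 of the 11 rose and 7 fell at 48 h. At 72 h, 6 fell and 0 rose (median -0.42, against -0.20), or 4 fell and 1 rose under the median of ratios, beside 48.5% of all genes. Between 48 and 4 h with IL-25, 10 of 11 fell and 0 rose (median -1.63, against -0.24), or 1 rose under either rescaling, beside 72.2% of all genes called. Without IL-25, 7 fell and 2 rose between those times (median -0.98, against -0.28), beside 64.4% of all genes. Stat5a averaged 14.5 ± 3.05 TPM with IL-25 at 48 h and 11.5 ± 3.35 TPM without. In iILC2 against nILC2, 7 of 11 fell in CTRL and 4 of 11 in KO, with none higher, beside 45.5% and 31.4% of all genes, and Jak2 fell by 1.05 in CTRL (adjusted p = 0.0002).

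Feedback and target genes of STAT5, a list of 14 with all tested, split with IL-25. At 4 h 6 rose and 5 fell, and at 48 and 72 h 6 rose and 6 fell, with median log2 fold changes of -0.045, -0.047 and 0.14, against -0.12, -0.093 and -0.20 over all genes. Under the median of ratios the 72 h split was 7 up and 3 down. The shares of all genes called were 40.3%, 50.1% and 48.5% at these times. Pim2, a kinase gene of survival and growth, rose by 1.25, 2.11 and 2.27 at 4, 48 and 72 h (adjusted p = 1e-11, 7.9e-17 and 1.8e-17). Bcl2, which protects lymphocytes from cell death and is a known target of IL-7 signals, fell by 1.99, 3.59 and 2.55 (adjusted p = 5.6e-13, 5.2e-19 and 4.3e-16). Its mean was 25.5 ± 2.07, 4.11 ± 0.262 and 11.9 ± 0.923 TPM with IL-25 at the 3 times, against 104.6 ± 10.98, 60.9 ± 10.4 and 74.3 ± 5.05 TPM without. Socs3, an inhibitor of JAK signals, rose by 1.52 at 48 h and 2.855 at 72 h (adjusted p = 5.9e-09 and 4.1e-14). Cish, an inhibitor that STAT5 induces, was at 87.2 ± 5.31 TPM with IL-25 at 48 h and 169.7 ± 10.2 TPM without, a fall by 0.95 (adjusted p = 2.1e-12).

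In iILC2 most called members of this list were lower. In CTRL, 9 of 14 were lower and 2 higher than in nILC2 (median -1.27, against -0.029 over all genes), and in KO 8 were lower and 0 higher (median -0.93, against -0.045), beside 45.5% of all genes called in CTRL and 31.4% in KO. Cish held 2.98, 1.16, 2.03 and 2.52 TPM in iILC2 CTRL, against 61.9, 49.3, 72.9 and 68.7 TPM in nILC2 CTRL, with no overlap. Its log2 fold change was -4.36 in CTRL (adjusted p = 3.4e-10) and -3.27 in KO (adjusted p = 3.2e-08). The fold change of Bcl2 was -3.38 in CTRL and -2.805 in KO, that of Socs1 -2.73 and -1.95, and that of Pim2 -2.49 and -2.135 (log2, adjusted p at most 5.8e-06 over these 6). Pim2 was thus lower in iILC2 than in nILC2, while in culture it was higher with IL-25. Whether the list differs from other genes was not tested. Between KO and CTRL none of the 14 was called in iILC2 or in nILC2, where 3 were called without replicate 1 of nILC2 KO and 1 without replicate 2 of nILC2 CTRL.

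**Figure D5:**
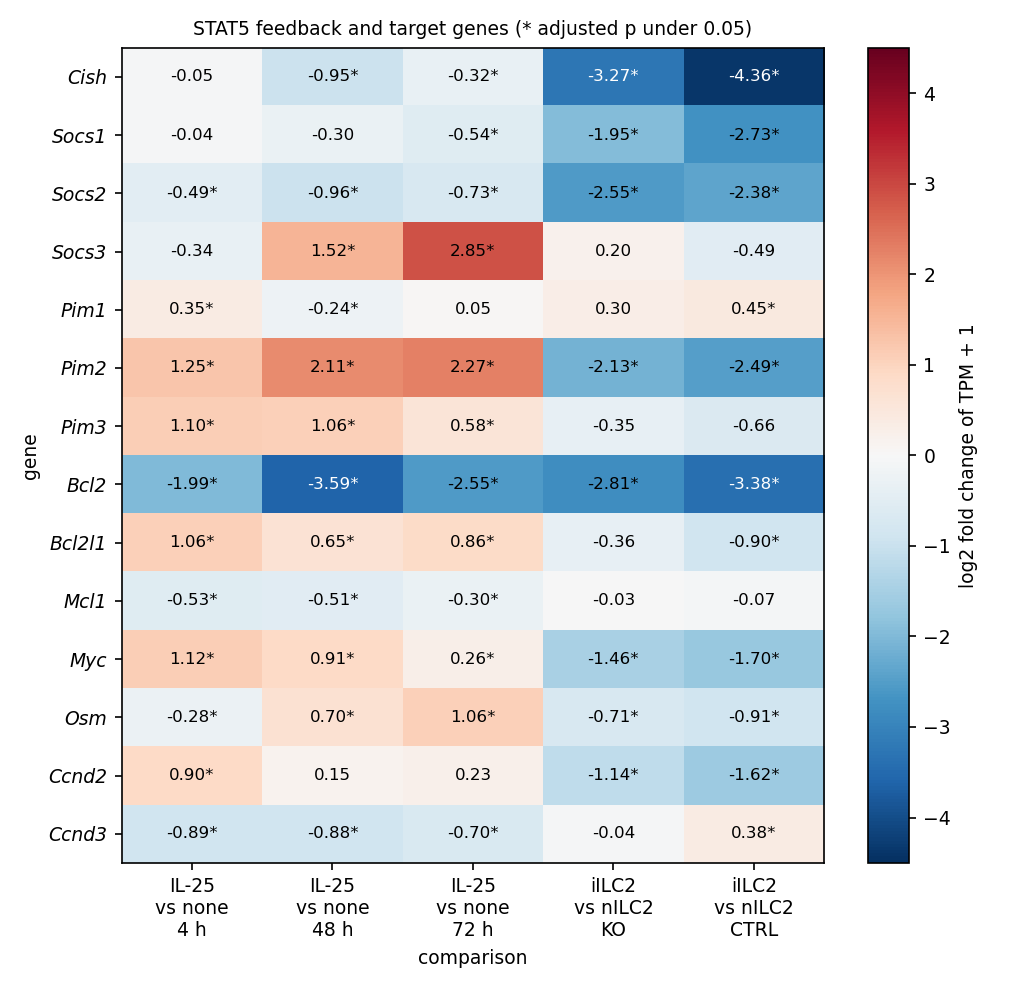
log2 fold changes of TPM + 1 (colour and number) of the 14 STAT5 feedback and target genes (rows) for IL-25 against none at 4, 48 and 72 h and for iILC2 against nILC2 in KO and CTRL mice (columns), where an asterisk marks an adjusted p under 0.05. Bcl2 was lower in all 5 comparisons, while Pim2 was higher with IL-25 and lower in iILC2.

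Partner chains of the same receptor family numbered 5 tested of 6 in culture and 4 of 6 in the genotype experiment. With IL-25, 2 of 5 fell at 4 h and 3 of 5 at 48 h, with 0 higher, and at 72 h 1 rose and 2 fell, or 2 rose and 2 fell under the median of ratios. These shares lay near those of all genes, 40.3% at 4 h, 50.1% at 48 h and 48.5% at 72 h. Il9r, whose product pairs with the gamma chain for IL-9, fell by 1.43 at 4 h (adjusted p = 2.2e-09), to 7.16 ± 0.631 TPM with IL-25 against 21.2 ± 4.18 TPM without. Il4ra, the binding chain for IL-4, was lower at 48 h (-1.35, adjusted p = 1.7e-07) and 72 h (-1.125, adjusted p = 3.5e-06). In iILC2 CTRL against nILC2 CTRL 2 of 4 were higher and 2 lower, beside 45.5% of all genes called, with Il4ra at -1.53 (adjusted p = 3.1e-06) and Il15ra at -1.14 (adjusted p = 2e-05). Among the ligands, 4 of 7 were tested in culture, of which 1 rose and 2 fell at 4 h, 1 rose and 3 fell at 48 h, and 0 rose and 2 fell at 72 h, against the same shares of all genes. Under the median of ratios 1 rose and 1 fell at 4 h. Il9, a type 2 cytokine, rose by 5.07 at 4 h (adjusted p = 5.8e-09), at 13636 to 17965 TPM with IL-25 against 346 to 847 TPM without, and by 3.09 at 48 h (adjusted p = 7.5e-06). Il2 itself was listed at 0, 0, 0.22 and 0 TPM with IL-25 at 48 h, against 5.71, 8.17, 7.32 and 6.4 TPM without (limma adjusted p = 3.2e-07).

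Factors known to act on the Il7r or Il2ra genes in lymphocytes were 12, all tested. With IL-25 3 rose and 3 fell at 4 h, 1 rose and 5 fell at 48 h, and 3 rose and 3 fell at 72 h, beside 40.3%, 50.1% and 48.5% of all genes called. The splits moved with the scaling, to 3 up and 2 down at 4 h, 2 up and 5 down at 48 h and 4 up and 2 down at 72 h under the median of ratios, and to 3 up and 4 down, 3 up and 6 down and 6 up and 3 down under quantile normalization. Rel, an NF-kB subunit, rose by 1.09 at 4 h (adjusted p = 1.7e-06), and Gata3, the lineage factor of ILC2s, fell by 1.29 at 48 h (adjusted p = 2.7e-13). Foxo1, an activator of Il7r in T cells, had a log2 fold change of 0.58 at 4 h (adjusted p = 0.0059), -0.13 at 48 h (adjusted p = 0.54) and 0.18 at 72 h (adjusted p = 0.38). In iILC2 CTRL 4 of 12 were higher and 4 lower than in nILC2 CTRL, beside 45.5% of all genes, with Gfi1, a repressor of Il7r in T cells, lower by 1.07 (adjusted p = 0.0011). Of FOXO1 target genes, Ccr7 and S1pr1, receptors that guide lymphocyte migration, were the 2 of 5 tested in culture. Ccr7 rose by 2.56, 5.37 and 3.30 at 4, 48 and 72 h (adjusted p = 7.5e-07, 6.4e-13 and 6.9e-09), and S1pr1 by 3.78 at 48 h and 2.35 at 72 h (adjusted p = 8.4e-12 and 5.8e-08). In iILC2 CTRL, Klf2 (2.01, adjusted p = 1.5e-07) and S1pr1 (1.93, adjusted p = 3.4e-07) were higher and Ccr7 (-2.015, adjusted p = 6.5e-05) lower than in nILC2 CTRL. Among the pathway lists, Gata3 was the single gene called between KO and CTRL in nILC2, at 218 ± 25.4 TPM in KO and 282 ± 13.4 TPM in CTRL, a fall by 0.37 (adjusted p = 0.038). This call was lost with the term for Y-linked genes, in a fit of both groups alone, and without replicate 1, 3 or 4 of nILC2 CTRL or replicate 2, 3 or 4 of nILC2 KO.

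Of 11 signalling adaptors and phosphatases, 2 rose and 3 fell with IL-25 at 4 h, 2 rose and 7 fell at 48 h, and 2 rose and 5 fell at 72 h, beside 40.3%, 50.1% and 48.5% of all genes called. At 72 h the split was 3 up and 4 down under either rescaling. Gab2, an adaptor of the phosphoinositide 3-kinase route, was lower at 48 h (-2.07) and 72 h (-1.665, adjusted p = 2.4e-11 and 1.7e-09), and so was Sh2b3, an inhibitor of JAK signals (-2.076 and -1.74, adjusted p = 4.3e-08 and 8.9e-07). Ptpn6, a phosphatase that dampens cytokine signals, had log2 fold changes of -1.28, -1.26 and -1.595 at 4, 48 and 72 h (adjusted p at most 8.2e-06). Sos1, an activator of Ras, rose by 1.33 at 48 h and 1.58 at 72 h (adjusted p = 8.5e-08 and 5.5e-09).

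The genes whose levels over the 24 culture libraries were most like those of each chain were sought among 6131 genes of at least 10 TPM on average. For Il2ra they were Hacd3, Ppid and Gars, with Pearson r of 0.988, 0.983 and 0.981. Over the 16 genotype libraries r was -0.35 for Hacd3, 0.893 for Ppid and -0.79 for Gars, so that of the 3 Ppid alone had a positive r in both experiments. For Il2rb the closest were Ptprc (0.962), Msmo1 (0.959) and Mvd (0.956), with -0.62, 0.551 and 0.774 in the genotype libraries. Il2rg ran with Serpina3g (0.980), H2-K1 (0.979) and H2-Q7 (0.975), and with r of 0.927, 0.967 and 0.962 in the genotype libraries. Il7r ran with Adpgk (0.982), Skp1a (0.975) and Rgs12 (0.968), and with r of 0.953, 0.945 and 0.939 there. The libraries fall into the study's groups and share their library scaling, so these values describe likeness across groups and carry no p. H2-K1 and H2-Q7 are class I histocompatibility genes with close copies, and Serpina3g too belongs to a family of near copies, whose reads the authors' counting may have split.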

How the data were processed

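Only the RNA-seq libraries were used, and 14 ATAC-seq and CUT&Tag samples were not analysed here. The authors deposited TPM values per gene and library in one table per experiment. The submitters' processing notes name cutadapt 2.10, STAR 2.7.5c, RSEM 1.3.3 and the build mm10, without roles or settings. TPM keep no depth, so precision rests on the 4 libraries per group.

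Each table was tested alone with limma 3.58.1 in R 4.3.3 (moderated test with a mean-variance trend, two-sided) on log2(TPM + 1), which understates changes of low genes. Genes needed at least 1 TPM in at least 4 libraries, which left 10548 culture and 10069 genotype genes. All groups of a table shared one estimate of spread. Adjusted p-values are Benjamini-Hochberg values over all genes of a comparison, and "called" means one under 0.05. The procedure was also run on simulated data with independent values and few changed genes. Most comparisons here called far more genes, so that run does not show the error rates in these data. There were 14 comparisons and 56 chain results.

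The chains and all gene lists were chosen with earlier results of these data known. Genes of a list were named if called and changed by at least 1 on the log2 scale, at most 4 per list and comparison, or called at any size between KO and CTRL. Foxo1, and Cish and Stat5a at 48 h in culture, fall outside this rule and were named after their values were seen. One gene that the rule names is not reported here. Alternatives were a pseudocount of 0.1 TPM, no filter, a filter of 5 TPM, scaling by the median of ratios, quantile normalization, array weights, a replicate block, a term for Y-linked genes, a fit of the compared groups alone, and leaving out each library.

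Whether same-numbered libraries deviate together from their group means was checked across genes. Between iILC2 KO and nILC2 KO the correlations were 0.188, 0.102, 0.231 and 0.145, all over 0.1, and no other pair of groups had all 4 over 0.1. This pairing comes from the data and is not stated in the labels. Python 3.11.15 was used for levels, ratios and motifs.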

Additional observations from a re-analysis of the deposited data

Results flagged for a closer look

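In 3 of the 40 pairs of chain and group, 1 library stood away from the other 3 by more than the 95% limit of Dixon's ratio of gap to range, which chance does in about 1 of 20 groups. Il7r was at 100.69 TPM in replicate 3 without IL-25 at 4 h, where the next highest library held 84.43 TPM. Il2rb was at 161.92 TPM in replicate 4 without IL-25 at 72 h, where the next highest held 127.48 TPM. Il2ra was at 48.71 TPM in replicate 2 of nILC2 CTRL, where the next lowest held 54.75 TPM.

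The effect of IL-25 itself differed between times by limma's test of the change, over 4 libraries per group, in 5 cases. Il2rg (-1.433) and Il7r (-1.375) had a lower log2 effect at 48 h than at 4 h. At 72 h against 48 h, the log2 effect was lower for Il7r (-1.247) and Il2ra (-0.5039) and higher for Il2rb (0.4015).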

How the results depend on the processing

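The 56 chain results were recomputed as 1012 alternative values, of which 981 kept the direction and the side of the threshold, 9 lost a call, 9 gained one and 13 changed sign, all of the last from values that were not called. The cause was not tested in any. Under the median of ratios, the IL-25 effect at 4 h was 0.087 for Il2rb, 0.078 for Il7r and -0.076 for Il2rg (call lost), and at 48 h 0.092 for Il2rb, which was 0.0024 with array weights. The change of the IL-25 effect between 48 and 72 h lost its call for Il2ra under the median of ratios (-0.37) and quantile normalization (-0.34), and gained one for Il2rg (0.39 and 0.31). Without IL-25, Il2rg at 48 h against 4 h was 0.47 (called) under the median of ratios and -0.048 under quantile normalization, and Il2rb at 72 h against 48 h was -0.059 and -0.041. In nILC2, KO against CTRL, Il2rg was -0.34 with array weights (called). Leaving out single libraries gave -0.26 to -0.18 for Il2rg at 4 h, -0.051 to 0.056 for Il2rb at 48 h, -0.57 to -0.41 and 0.34 to 0.49 for the later change of effect of Il2ra and Il2rb, 0.11 to 0.19 for Il2rg at 48 h against 4 h without IL-25, and -0.084 to 0.059 for Il2rb at 72 h against 48 h without it. Between KO and CTRL in nILC2 it gave 0.21 to 0.35 for Il2rb and -0.39 to -0.24 for Il2rg, and 0.29 to 0.44 for the difference of the KO effects on Il2rg. Counts of called genes were less stable. Between KO and CTRL in nILC2, 155 genes were called, against 82 with the pseudocount of 0.1 TPM, 272 under the median of ratios, 275 with array weights, 87 with the term for Y-linked genes, 5 in a fit of both groups alone, and 23 to 1006 without single libraries. At 72 h against 48 h without IL-25 there were 40, against 26 with that pseudocount, 86 under quantile normalization, 64 with array weights, 1 in the fit alone and 11 to 26 where a library left out moved the count. For the difference of the KO effects there were 0, against 1 under quantile normalization, 21 with array weights, 5 with the term for Y-linked genes, and 132, 5 and 2 without replicate 1 of nILC2 KO, replicate 2 of nILC2 CTRL and replicate 2 of iILC2 CTRL.

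With the replicate block, no chain gained or lost a call. Il2rg at 4 h kept its log2 fold change of -0.23 (adjusted p = 0.0073 with the block). The block gave 317 called genes between KO and CTRL in nILC2 and 8 for the difference of the KO effects. Depth is unknown, and 4 libraries per group limit what could be detected.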
